A study of Mus musculus with 6 samples.

Results

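The genes described here are 40 genes of DNA replication and S phase, chosen by name for what their proteins do. Earlier results of these data were known when the choice was made, so it was not blind to them. The 40 genes were followed among 22942 genes in the mouse mesenchymal line C3H-10T1/2, from which adipocytes can be grown. Each gene was represented by its transcript with the highest mean level over the 6 libraries, and the level is given in RPKM, reads per length of transcript and per depth of library. All 40 had a value above 0 in every library, and all 40 passed the low-value filter (0.1 RPKM or more in 3 or more libraries), which left 13829 genes to test.

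The treated group was 3 libraries from cells given 611, also named Cpd A, which inhibits LSD1, an enzyme that removes methyl groups from histones. The dose was 4 uM. The comparison group was 3 libraries from cells given DMSO, the solvent. Both groups were the same unmodified line and were collected on day 6 of differentiation towards brown adipocytes. Induction lasted 72 h in a mixture of isobutylmethylxanthine at 0.5 mM, indomethacin at 125 uM, dexamethasone at 1 uM, insulin at 20 nM, T3 at 1 nM and rosiglitazone at 1 uM, and insulin, T3 and rosiglitazone were kept on afterwards. The labels place the start of treatment either at seeding or 12 h later. Induction followed 48 h after treatment, and the serum was at 10%, in both groups. The design text describes the replicates as biological triplicates of this 1 line, and p-values measure the spread between them. As background to the label of brown adipocytes, the fat cell markers were abundant in both groups, while the value of Ucp1, whose protein makes brown fat give off heat, was 0 in each of the 6 libraries. Of the other markers of brown fat, 5 of the 6 tested were called lower with 611 (median log2 fold change -1.08). The exception was Ppargc1a, which averaged 0.705 RPKM with 611 and 0.527 RPKM with DMSO and was not called (limma adjusted p = 0.129). Prdm16, called lower, was low in both groups, at 0.104 RPKM with 611 and 0.34 RPKM with DMSO. Dio2 was near 0 and not tested.

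DNA replication is prepared in G1, when the origin recognition complex, Cdc6 and Cdt1 load the MCM helicase on DNA, and it starts in S phase, when Cdc45 and GINS turn that helicase on. Polymerase alpha with primase then starts the new strands, and polymerases delta and epsilon extend them. The PCNA clamp, which the RFC complex loads, serves delta and epsilon. Many of these genes are targets of E2F transcription factors and are low in cells that have left the cell cycle. In preadipocyte culture, confluent cells go through a round of divisions after induction and then stop dividing as they become fat cells.

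At day 6 the replication genes were higher with 611 almost throughout. Of the 40 genes 35 were higher and 1 was lower, and 4 did not pass the test (limma on all genes tested, Benjamini-Hochberg adjusted p below 0.05). Over all genes tested 41.6% were called higher and 17.7% lower. The median log2 fold change of the 40 genes was 0.66 on the log2(RPKM + 1) scale, and that of all genes tested was 0.10. The 3 libraries with 611 all lay above the 3 with DMSO for 35 of the 40 genes, as they did for 45.8% of all genes tested. Scaling the libraries so that the median gene stays at the same level (median-of-ratios scaling) moved the median of the 40 genes to 0.54, with 32 higher and 2 lower, beside 28.5% and 28.6% of all genes. The plot of values by library shows the 40 genes by role.

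**Figure D1:**
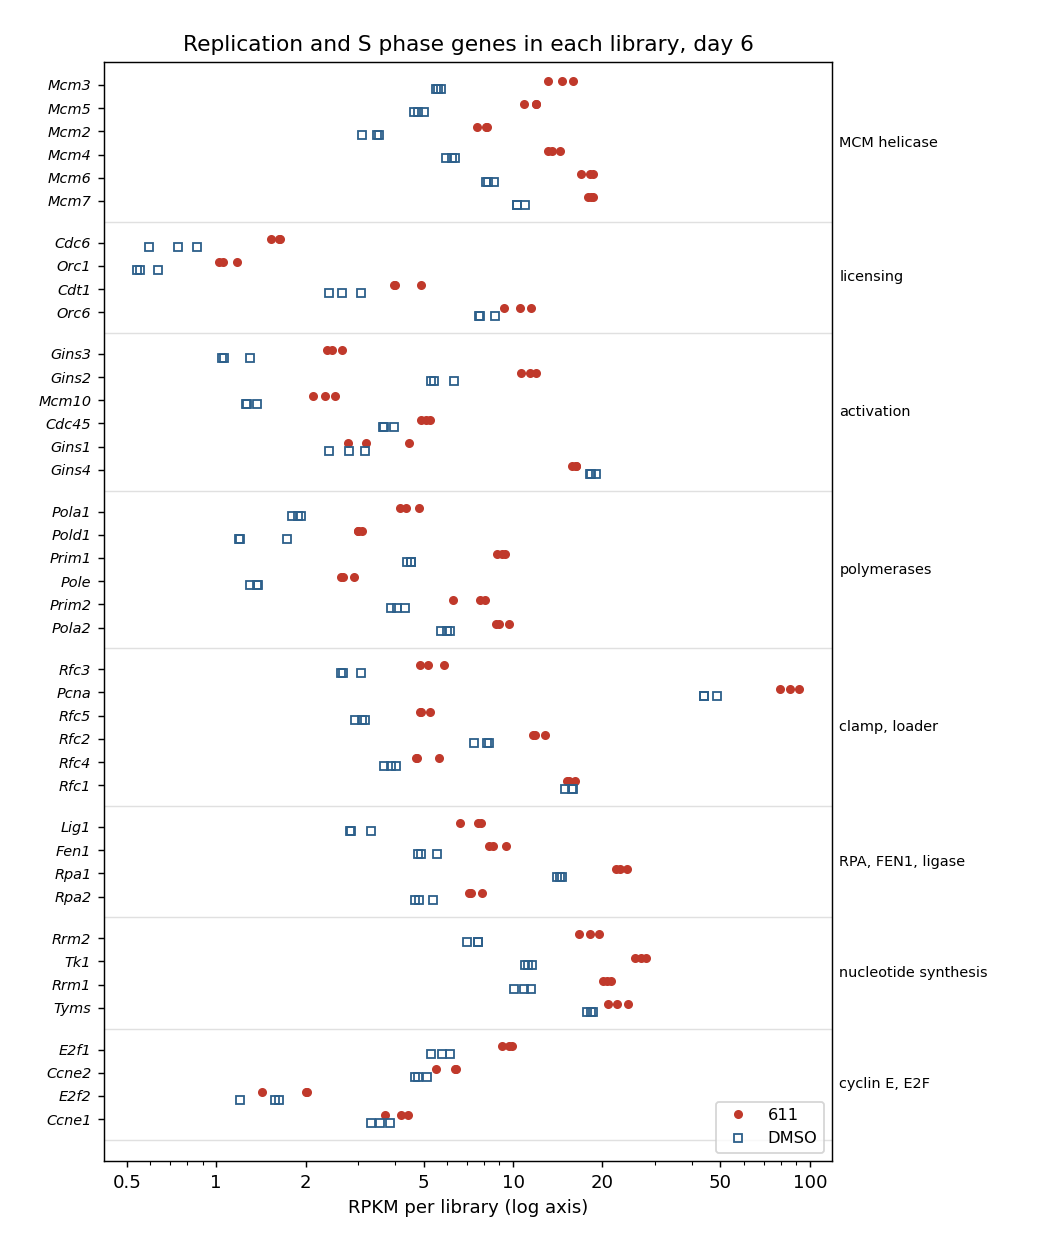
RPKM of each of the 40 genes on a log axis, with 1 point per library, 3 for 611 (filled circles) and 3 for DMSO (open squares), grouped by role and ordered within a role by fold change. The 611 libraries lie to the right of the DMSO libraries for 35 genes, to the left for Gins4, and overlap for Gins1, Rfc1, E2f2 and Ccne1.

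By ratio of mean RPKM, the fold changes ran from 2.60-fold higher for Mcm3 to 1.15-fold lower for Gins4, with a median of 1.79-fold higher, and 15 of the 40 reached 2-fold. Among all genes tested with a mean of at least 1 RPKM, as 39 of the 40 had, 897 of 11372 reached 2-fold higher. The spread between replicates was small against the fold changes of most of the 40 genes. Their coefficient of variation over 3 libraries had a median of 5.77% with 611 and 5.23% with DMSO. The noisiest values were those of Gins1 with 611, at 25.1%. RNA of a whole culture was measured, so a larger share of cells in S phase and more replication mRNA per cell cannot be told apart.

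Markers of cell state moved in the same libraries. All 10 adipocyte markers were lower, with a summed level between 15040 and 16650 RPKM with 611 and between 28970 and 30200 RPKM with DMSO. Of 9 mesenchymal progenitor markers 7 were higher and 0 lower, summing to 239 to 254 RPKM with 611 and 72.6 to 82.0 RPKM with DMSO. Cfd and Lpl, of the adipocyte list, fell 3.13-fold and 2.05-fold (limma adjusted p = 1.1e-05, and limma adjusted p = 1.5e-06), and Ly6a and Vcam1, of the progenitor list, rose 4.15-fold and 2.69-fold (limma adjusted p = 2.2e-07, and limma adjusted p = 1.2e-06). Most of the level of the brown adipocyte markers was Elovl3, which averaged 76.0 RPKM with 611 and 151 RPKM with DMSO. The 8 brown adipocyte markers summed to 83.5 to 102 RPKM with 611 and 224 to 268 RPKM with DMSO. Of these, Cidea, a lipid droplet protein, averaged 9.42 ± 0.840 RPKM with 611, against 61.7 ± 13.3 RPKM with DMSO (mean ± SD, n = 3 in each group, as for every mean below; limma adjusted p = 1.7e-06), and Cox8b, a respiratory chain subunit, averaged 3.28 ± 0.968 RPKM with 611, against 28.1 ± 1.07 RPKM with DMSO (limma adjusted p = 9.8e-07). The part of these shifts in the replication genes was not tested. Markers of leukocytes and endothelium were near absent: the 5 macrophage markers measured summed to at most 0.326 RPKM with 611 and 0.192 RPKM with DMSO, the 5 endothelial markers to at most 0.323 and 0.232 RPKM, and their defining genes Ptprc and Cdh5 were listed at 0 in all 6 libraries. The 6 skeletal muscle markers summed to 1.66 to 2.01 RPKM with 611 and 3.90 to 5.25 RPKM with DMSO. Most of this was Des, an intermediate filament gene, at 1.58 ± 0.198 RPKM with 611, against 1.81 ± 0.157 RPKM with DMSO (limma adjusted p = 0.206), and Acta1, a muscle actin, which fell 9.63-fold to 0.273 ± 0.0790 RPKM with 611, against 2.63 ± 0.548 RPKM with DMSO (limma adjusted p = 5.5e-06), while Myod1, Myog and Ckm were listed at 0.

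Promoters were searched for motifs, whose letters the choice of the genes did not use. Many replication genes are known E2F targets, so the E2F motif share is not independent of a choice by function. RefSeq gives a promoter window of 300 bases, from 250 before the annotated start to 50 after it, for 32 of the 40 genes in build GRCm38.p6, and 37 windows in all since some genes have several starts. The E2F motif was searched as TTTCCCGC, TTTCGCGC, TTTGCCGC or TTTGGCGC on both strands. It occurred in 13 of the 37 windows, 35.1%, against 744 of 32851 windows of all genes, 2.26%. The 37 windows had a median GC content of 57.7% and all windows had 52.7%. Among the 25 G2 and mitosis genes with a window, 1 held the motif. The reverse held for the CHR element TTTGAA, known from promoters of mitosis genes, which was in 20 of 27 windows (74.1%) of the mitosis genes, 5 of 37 windows (13.5%) of the replication genes and 17.9% of all windows. CCAAT boxes were in 59.5% of the replication windows, 77.8% of the mitosis windows and 37.4% of all windows. GC boxes (GGGCGG) were in 70.3%, 85.2% and 35.7% of these windows in the same order, so both were more frequent in the mitosis windows than in the replication windows.

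The stretches below run from 180 bases before the annotated start to 20 after it, on the gene's own strand, with E2F motif matches in capitals. Mcm5, Mcm6 and Orc1 are licensing genes that were higher with 611, and Gins3 and Rfc3 belong to complexes whose subunits moved unequally. Rfc1, the RFC subunit at the same level in both groups, has no match, as is also true of genes called higher, such as Mcm2 and Pcna. The motifs of Mcm5, and the pair of Mcm6 farther from the start, overlap each other on opposite strands.

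Mcm5, chr8:75109329-75109528, plus strand: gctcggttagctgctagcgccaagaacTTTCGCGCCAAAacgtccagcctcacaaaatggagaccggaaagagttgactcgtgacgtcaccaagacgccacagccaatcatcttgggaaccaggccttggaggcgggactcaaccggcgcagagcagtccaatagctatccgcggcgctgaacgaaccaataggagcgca

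Mcm6, chr1:128359686-128359885, minus strand: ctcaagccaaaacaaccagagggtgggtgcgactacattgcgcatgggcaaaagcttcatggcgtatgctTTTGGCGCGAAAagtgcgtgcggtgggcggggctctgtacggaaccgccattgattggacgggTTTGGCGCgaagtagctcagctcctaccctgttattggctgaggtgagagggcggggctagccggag

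Orc1, chr4:108579274-108579473, plus strand: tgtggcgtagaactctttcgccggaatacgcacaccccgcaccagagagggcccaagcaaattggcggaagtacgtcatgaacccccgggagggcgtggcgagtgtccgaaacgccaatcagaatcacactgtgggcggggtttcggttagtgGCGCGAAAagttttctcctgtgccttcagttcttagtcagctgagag

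Gins3, chr8:95633379-95633578, plus strand: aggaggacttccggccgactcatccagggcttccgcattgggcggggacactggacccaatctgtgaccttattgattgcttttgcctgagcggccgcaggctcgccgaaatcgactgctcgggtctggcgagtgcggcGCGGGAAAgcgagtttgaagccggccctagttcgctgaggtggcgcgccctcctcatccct

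Rfc3, chr5:151651189-151651388, minus strand: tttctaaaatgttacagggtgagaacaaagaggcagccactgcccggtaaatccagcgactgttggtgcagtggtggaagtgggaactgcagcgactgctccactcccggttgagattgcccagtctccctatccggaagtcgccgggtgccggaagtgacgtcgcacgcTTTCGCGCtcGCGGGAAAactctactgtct

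Rfc1, chr5:65335620-65335819, minus strand: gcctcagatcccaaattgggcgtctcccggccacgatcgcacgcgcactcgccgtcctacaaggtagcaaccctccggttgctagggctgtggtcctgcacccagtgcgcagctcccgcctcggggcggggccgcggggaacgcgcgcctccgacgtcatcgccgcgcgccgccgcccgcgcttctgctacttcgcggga

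Of the 13 genes with a match, 12 were called higher with 611, and the exception was E2f2, which did not pass the test. Of all 32 genes with a window 29 were called higher. Of these 29, 12 had a match, and those without one included Mcm2, Pcna, Rrm2 and Tk1. Rfc1 and Ccne1, the other genes with a window that were not called higher, had no match. The 8 genes without a window could not be searched. They include Gins4, the only gene called lower, and Gins1, which was not called. A match is a description of letters, and binding was not measured.

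**Figure D2:**
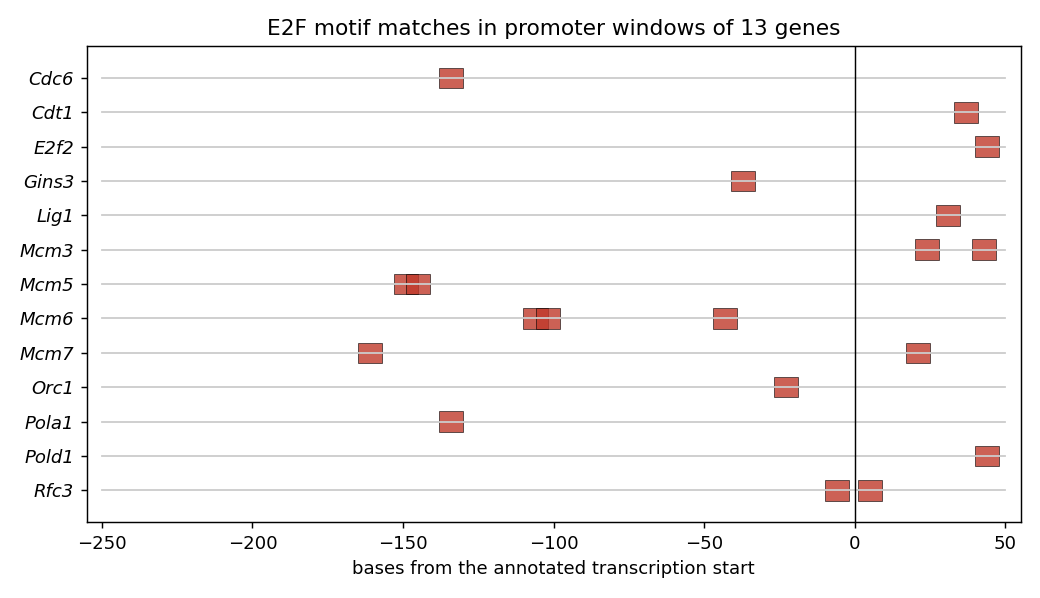
Positions of the 19 E2F motif matches in the promoter windows of 13 genes, in bases from the annotated start. Each box is 1 match of 8 bases drawn to scale. Mcm6 has 3 matches, the most of the 13, and matches lie on both sides of the start.

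The MCM helicase rose as a whole. Its 6 subunits, Mcm2 to Mcm7, form the ring that unwinds DNA at the fork, and all 6 were called higher, with every 611 library above every DMSO library. Mcm3 was at 14.6, 13.2 and 15.96 RPKM in the 611 libraries, against 5.61, 5.49 and 5.71 RPKM in the DMSO libraries. The rise was 2.60-fold, the largest of the 40 genes (log2 fold change 1.23, 95% interval 1.08 to 1.39, limma adjusted p = 1.6e-06). Mcm5 was at 11.98, 10.9 and 11.98 RPKM in the 611 libraries, against 5.01, 4.66 and 4.79 RPKM in the DMSO libraries. For Mcm2, the subunit with the lowest level of the ring, the values were 8.08, 7.58 and 8.16 RPKM in the 611 libraries, against 3.48, 3.09 and 3.54 RPKM in the DMSO libraries. These groups were far apart, with each 611 library more than 2 times as high as any DMSO library for Mcm3, Mcm5 and Mcm2. Mcm5 rose 2.41-fold (limma adjusted p = 1.1e-06) and Mcm2 rose 2.36-fold (limma adjusted p = 2.5e-06). Mcm4 and Mcm6 rose 2.21-fold and 2.14-fold, to 13.7 ± 0.685 RPKM with 611, against 6.18 ± 0.227 RPKM with DMSO, and to 17.9 ± 0.877 RPKM with 611, against 8.34 ± 0.274 RPKM with DMSO.

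Mcm7 rose least of the ring. Its values were 18.0, 18.3 and 18.6 RPKM in the 611 libraries, against 10.3, 10.3 and 10.99 RPKM in the DMSO libraries, a rise of 1.73-fold (log2 fold change 0.74, 95% interval 0.64 to 0.84, limma adjusted p = 2.2e-06). That interval lies below the intervals of the other 5 subunits, whose lower ends were at 0.89 or above. With DMSO Mcm7 was the highest subunit and Mcm2 the lowest, 3.12 times apart, and with 611 they were 2.30 times apart. The summed level of the 6 genes was 84.3, 79.8 and 87.6 RPKM in the 611 libraries, against 39.3, 37.6 and 39.7 RPKM in the DMSO libraries. Each 611 sum was more than 2 times each DMSO sum.

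Licensing factors were higher but by unequal amounts. Cdc6, the ATPase that joins the origin complex to load the ring, was at 1.64, 1.53 and 1.62 RPKM in the 611 libraries, against 0.863, 0.594 and 0.742 RPKM in the DMSO libraries. It rose 2.18-fold (log2 fold change 0.59, 95% interval 0.43 to 0.75, limma adjusted p = 0.00012), and at so low a level the log2(RPKM + 1) scale understates the change. Orc1, the origin recognition subunit whose level follows the cell cycle, was at 1.17, 1.02 and 1.06 RPKM in the 611 libraries, against 0.556, 0.635 and 0.542 RPKM in the DMSO libraries. It was the lowest of the 40 genes, resting on about 65.1 reads in its lowest library, and rose 1.88-fold (limma adjusted p = 0.00043). Cdt1, the loading partner of the ring, averaged 4.29 ± 0.522 RPKM with 611, against 2.71 ± 0.343 RPKM with DMSO, 1.58-fold higher (limma adjusted p = 0.00131). Orc6, the smallest subunit of the complex, averaged 10.4 ± 1.09 RPKM with 611, against 8.05 ± 0.563 RPKM with DMSO, 1.30-fold higher (limma adjusted p = 0.00528), a call lost after median-of-ratios scaling (log2 fold change 0.20, limma adjusted p = 0.0627) but not with scaling and the replicate block together (limma adjusted p = 0.0271).

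None of the other origin complex subunits, Orc2 to Orc5, was called higher. Orc2 averaged 8.53 ± 0.699 RPKM with 611, against 8.78 ± 0.487 RPKM with DMSO (log2 fold change -0.04, 95% interval -0.19 to 0.11, limma adjusted p = 0.635). Orc3 averaged 9.72 ± 0.626 RPKM with 611, against 9.74 ± 0.263 RPKM with DMSO (log2 fold change -0.00, 95% interval -0.13 to 0.12, limma adjusted p = 0.949). Orc4 averaged 8.53 ± 0.434 RPKM with 611, against 8.31 ± 0.146 RPKM with DMSO (log2 fold change 0.03, 95% interval -0.08 to 0.15, limma adjusted p = 0.613). Orc5 fell 1.19-fold to 9.77 ± 0.877 RPKM with 611, against 11.6 ± 0.427 RPKM with DMSO (limma adjusted p = 0.0134). Geminin (Gmnn), which binds Cdt1 and blocks its reuse in the same S phase, rose 1.47-fold (limma adjusted p = 0.00035). The ratio of Cdt1 to Gmnn was 0.494, 0.580 and 0.638 with 611, against 0.564, 0.491 and 0.523 with DMSO, and these groups overlapped. The background over all genes tested was 41.6% higher and 17.7% lower, or 28.5% and 28.6% after scaling. In the whole list of 16 licensing and firing factors outside the 40 genes, 10 were higher and 1 lower, with a median log2 fold change of 0.23. After scaling 7 of this list were higher and 2 lower (median 0.13). Dbf4, the activator of the Cdc7 kinase that fires origins, had the largest rise there, 2.24-fold to 6.64 ± 0.316 RPKM with 611, against 2.97 ± 0.327 RPKM with DMSO (limma adjusted p = 8.8e-06), and Topbp1, needed to activate the helicase, rose 1.59-fold.

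Helicase activation genes were divided, with 4 higher, 1 lower and 1 not called. GINS is a complex of 4 proteins, each present once, that joins Cdc45 on the MCM ring. Gins3 was at 2.45, 2.36 and 2.65 RPKM in the 611 libraries, against 1.05, 1.06 and 1.30 RPKM in the DMSO libraries, and rose 2.18-fold (log2 fold change 0.71, 95% interval 0.55 to 0.87, limma adjusted p = 3.8e-05). Gins2 was at 10.6, 11.4 and 11.99 RPKM in the 611 libraries, against 5.43, 5.29 and 6.31 RPKM in the DMSO libraries, and rose 2.00-fold (limma adjusted p = 1.1e-05). In both genes all 611 libraries lay above all DMSO libraries. Gins4, the subunit also known as Sld5, went the other way, at 16.3, 15.8 and 16.3 RPKM in the 611 libraries, against 19.0, 18.3 and 18.1 RPKM in the DMSO libraries. It fell 1.15-fold (log2 fold change -0.19, 95% interval -0.28 to -0.09, limma adjusted p = 0.00349), without overlap between groups, and was the only 1 of the 40 genes called lower. Gins1 was at 3.20, 4.45 and 2.77 RPKM in the 611 libraries, against 2.40, 3.17 and 2.81 RPKM in the DMSO libraries, with overlapping groups, and did not pass the test (log2 fold change 0.23, 95% interval -0.08 to 0.53, limma adjusted p = 0.175). With the levels of its transcripts summed, Gins1 was called higher (log2 fold change 0.31, limma adjusted p = 0.0357).

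Gins4 was also the highest GINS mRNA in every library. It exceeded Gins3 by 6.65, 6.70 and 6.15 times in the 611 libraries, against 18.2, 17.2 and 13.9 times in the DMSO libraries. The ratio of Gins4 to Gins2 was 1.53, 1.38 and 1.36 with 611, against 3.50, 3.46 and 2.87 with DMSO. Both ratios were lower in every 611 library, and no test was run on them. Cdc45, the helicase cofactor, averaged 5.10 ± 0.182 RPKM with 611, against 3.76 ± 0.179 RPKM with DMSO, 1.36-fold higher (limma adjusted p = 0.00066), a call lost under quantile normalization (limma adjusted p = 0.117). Mcm10, which helps the active helicases separate, averaged 2.32 ± 0.190 RPKM with 611, against 1.30 ± 0.0626 RPKM with DMSO, 1.79-fold higher (limma adjusted p = 0.00014).

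**Figure D3:**
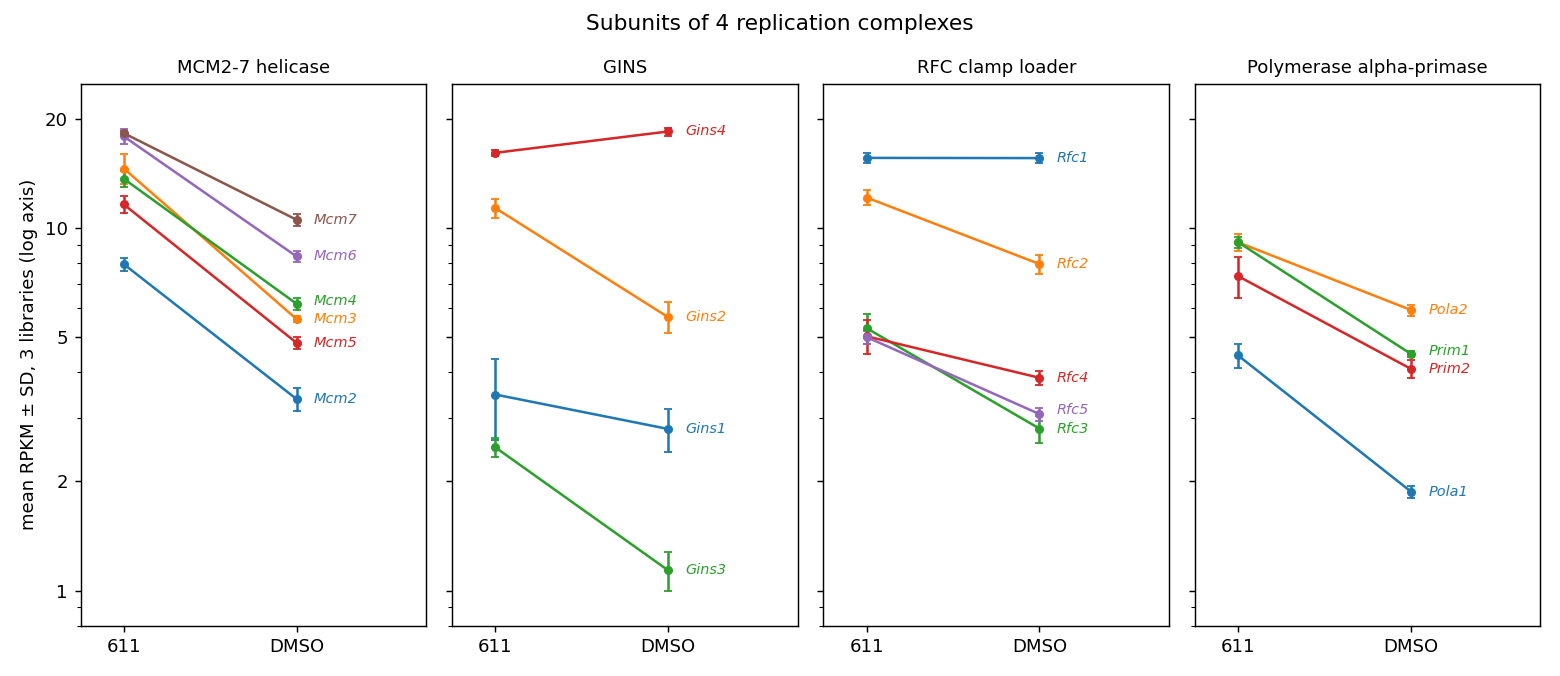
Mean RPKM ± SD (n = 3 libraries) of the subunits of 4 complexes with 611 (left) and DMSO (right), on a log axis, 1 line per gene. Lines slope down to DMSO for most subunits, Gins4 slopes up, Rfc1 is level, and the highest and lowest subunits stand closer together with 611 in each panel.

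Polymerase genes were all higher, 6 of 6. Polymerase alpha and primase, which lay down the primers, had all 4 subunits higher. Pola1, the catalytic subunit, was at 4.35, 4.16 and 4.83 RPKM in the 611 libraries, against 1.89, 1.94 and 1.80 RPKM in the DMSO libraries. It rose 2.37-fold (log2 fold change 0.92, 95% interval 0.77 to 1.07, limma adjusted p = 5.8e-06). The primase genes Prim1 and Prim2 averaged 9.13 ± 0.305 RPKM with 611, against 4.49 ± 0.0963 RPKM with DMSO, and 7.36 ± 0.9499 RPKM with 611, against 4.09 ± 0.224 RPKM with DMSO, 2.03-fold and 1.80-fold higher (limma adjusted p = 1.9e-06, and limma adjusted p = 0.00012). Pola2, the accessory subunit, was the least changed at 1.54-fold (limma adjusted p = 4.1e-05), and the interval of its log2 fold change, 0.42 to 0.67, lay below that of Pola1, 0.77 to 1.07. Pold1, the catalytic subunit of the lagging-strand polymerase, was at 3.11, 3.01 and 3.01 RPKM in the 611 libraries, against 1.73, 1.198 and 1.202 RPKM in the DMSO libraries, with DMSO replicate 1 above the other DMSO libraries and below all 611 libraries. It rose 2.21-fold (limma adjusted p = 9.4e-05). Pole, the catalytic subunit of the leading-strand polymerase, averaged 2.74 ± 0.151 RPKM with 611, against 1.35 ± 0.0462 RPKM with DMSO, 2.02-fold higher (limma adjusted p = 2.1e-05).

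The accessory subunits of the same polymerases moved in both directions. Pole2 rose 1.82-fold (limma adjusted p = 0.00029), and Pole4, a histone-fold subunit of polymerase epsilon, fell 1.32-fold, with 21.3, 21.0 and 22.2 RPKM in the 611 libraries, against 29.3, 27.9 and 27.7 RPKM in the DMSO libraries (limma adjusted p = 5.7e-05). Pole3, the partner of Pole4, averaged 21.3 ± 0.228 RPKM with 611, against 19.2 ± 1.17 RPKM with DMSO, 1.11-fold higher (limma adjusted p = 0.0253), a call lost after scaling (limma adjusted p = 0.934). Pold4, the smallest subunit of polymerase delta, fell 1.15-fold to 22.3 ± 1.63 RPKM with 611, against 25.7 ± 1.199 RPKM with DMSO (limma adjusted p = 0.0174), and Pold2 rose 1.19-fold (limma adjusted p = 0.00145), a call also lost after scaling (limma adjusted p = 0.098, and 0.0596 with the block). Over the whole list of 21 other fork and polymerase genes, 17 were higher and 2 lower (median log2 fold change 0.32), beside 10 and 3 after scaling.

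Pcna, the sliding clamp, was the most abundant mRNA of the 40 genes. Its values were 85.5, 79.3 and 91.9 RPKM in the 611 libraries, against 44.1, 43.9 and 48.6 RPKM in the DMSO libraries. It rose 1.88-fold (log2 fold change 0.89, 95% interval 0.76 to 1.03, limma adjusted p = 4.7e-06), and the gain of about 40.0 RPKM was larger than the whole DMSO level of any other gene in the set. The clamp loader that sets PCNA on DNA was uneven. Rfc1, its large subunit, was at 15.5, 16.1 and 15.2 RPKM in the 611 libraries, against 15.02, 15.9 and 15.8 RPKM in the DMSO libraries, with overlapping groups and no change called (log2 fold change 0.00, 95% interval -0.10 to 0.10, limma adjusted p = 0.97). After median-of-ratios scaling Rfc1 was called lower, with a log2 fold change of -0.14 (limma adjusted p = 0.0191). The 4 small subunits were called higher: Rfc3 was at 5.16, 5.84 and 4.87 RPKM in the 611 libraries, against 3.07, 2.67 and 2.64 RPKM in the DMSO libraries, a rise of 1.89-fold (log2 fold change 0.73, 95% interval 0.55 to 0.90, limma adjusted p = 5.4e-05). Rfc5 and Rfc2 rose 1.63-fold and 1.53-fold (limma adjusted p = 4.6e-05, and limma adjusted p = 5.1e-05). Rfc4 rose 1.30-fold to 5.03 ± 0.542 RPKM with 611, against 3.86 ± 0.183 RPKM with DMSO (limma adjusted p = 0.00644), a call lost after scaling (limma adjusted p = 0.058) but not with scaling and the replicate block together (limma adjusted p = 0.0239).

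The small RFC subunits also serve loaders in which another protein takes the place of Rfc1. Chtf18 and Dscc1, of the loader that acts in sister chromatid cohesion, rose 2.32-fold to 2.30 ± 0.105 RPKM with 611, against 0.995 ± 0.0863 RPKM with DMSO, and 2.68-fold to 1.64 ± 0.189 RPKM with 611, against 0.611 ± 0.155 RPKM with DMSO (limma adjusted p = 1.6e-05, and limma adjusted p = 0.00014), the largest rises in the list of other fork genes. Rad17, of the loader that acts in the DNA damage checkpoint, fell 1.19-fold to 7.67 ± 0.793 RPKM with 611, against 9.16 ± 0.296 RPKM with DMSO (limma adjusted p = 0.0198). The ratio of Rfc1 to Rfc3 was 2.99, 2.77 and 3.12 with 611, against 4.89, 5.95 and 5.98 with DMSO.

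Single-strand binding and Okazaki fragment genes were higher, 4 of 4. Lig1, the ligase that seals the fragments, was at 7.60, 6.62 and 7.79 RPKM in the 611 libraries, against 3.31, 2.84 and 2.83 RPKM in the DMSO libraries. It rose 2.45-fold, the largest fold of the 40 genes after that of Mcm3 (log2 fold change 1.06, 95% interval 0.89 to 1.24, limma adjusted p = 6.2e-06). Fen1, the nuclease that trims them, averaged 8.77 ± 0.613 RPKM with 611, against 5.07 ± 0.408 RPKM with DMSO, 1.73-fold higher (limma adjusted p = 4.1e-05). Rpa1 and Rpa2, of the complex that covers single-stranded DNA, averaged 23.1 ± 1.08 RPKM with 611, against 14.4 ± 0.25 RPKM with DMSO, and 7.40 ± 0.405 RPKM with 611, against 4.95 ± 0.359 RPKM with DMSO, 1.61-fold and 1.49-fold higher (limma adjusted p = 5e-06, and limma adjusted p = 0.00018).

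Nucleotide synthesis genes were higher, 4 of 4, but by unequal amounts. Rrm2, the small subunit of ribonucleotide reductase and the one made in S phase, was at 18.2, 16.7 and 19.4 RPKM in the 611 libraries, against 7.64, 7.02 and 7.62 RPKM in the DMSO libraries, a rise of 2.44-fold (log2 fold change 1.18, 95% interval 1.04 to 1.32, limma adjusted p = 1.4e-06). Rrm1, the large subunit, averaged 20.7 ± 0.663 RPKM with 611, against 10.8 ± 0.686 RPKM with DMSO, 1.92-fold higher (limma adjusted p = 2.5e-06). The ratio of Rrm2 to Rrm1 was 0.881, 0.831 and 0.907 with 611, against 0.704, 0.695 and 0.664 with DMSO, higher in every 611 library. Tk1, the thymidine kinase of the salvage route, was at 25.9, 26.9 and 28.0 RPKM in the 611 libraries, against 11.2, 11.6 and 10.96 RPKM in the DMSO libraries. It rose 2.39-fold and had the smallest adjusted p of the 40 genes (log2 fold change 1.19, 95% interval 1.09 to 1.29, limma adjusted p = 3.8e-07). Tyms, which makes the same nucleotide by the new-synthesis route, was at 20.9, 24.4 and 22.4 RPKM in the 611 libraries, against 18.3, 18.6 and 17.8 RPKM in the DMSO libraries, 1.24-fold higher (log2 fold change 0.29, 95% interval 0.16 to 0.42, limma adjusted p = 0.00198). Tyms exceeded Tk1 in the DMSO libraries, by 1.63, 1.61 and 1.62 times, but not with 611, where the ratio of Tyms to Tk1 was 0.808, 0.908 and 0.802.

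Nucleotide supply genes outside the 40 had a median close to that of all genes. Of 23 genes 13 were higher and 2 lower (median log2 fold change 0.14), beside 5 and 3 after scaling. Samhd1, which breaks down deoxynucleotides, rose 1.98-fold to 34.5 ± 1.96 RPKM with 611, against 17.4 ± 0.708 RPKM with DMSO (limma adjusted p = 1.6e-06). Dck, a salvage kinase, rose 1.96-fold (limma adjusted p = 0.00015). Impdh1, of guanine nucleotide synthesis, fell 1.88-fold to 23.3 ± 2.16 RPKM with 611, against 43.9 ± 1.78 RPKM with DMSO (limma adjusted p = 6.8e-06), and Cmpk1, a pyrimidine monophosphate kinase, fell 1.48-fold (limma adjusted p = 4.8e-06).

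The regulators that open S phase had the smallest median log2 fold change of the 8 roles, 0.23. Cyclin E drives Cdk2 at the entry to S phase, and Ccne1 was at 4.42, 3.70 and 4.19 RPKM in the 611 libraries, against 3.55, 3.85 and 3.34 RPKM in the DMSO libraries, with overlapping groups and no change called (log2 fold change 0.16, 95% interval -0.01 to 0.32, limma adjusted p = 0.0983). Ccne2 was at 6.43, 5.52 and 6.38 RPKM in the 611 libraries, against 4.67, 4.79 and 5.14 RPKM in the DMSO libraries, 1.26-fold higher (log2 fold change 0.28, 95% interval 0.12 to 0.43, limma adjusted p = 0.00713), a call lost after scaling without the block (limma adjusted p = 0.0984) and with it (limma adjusted p = 0.0571). Cdk2 itself averaged 13.2 ± 0.727 RPKM with 611, against 12.3 ± 0.180 RPKM with DMSO and did not pass the test (limma adjusted p = 0.119). E2f1, an activator of replication genes, was at 9.93, 9.19 and 9.69 RPKM in the 611 libraries, against 5.79, 6.12 and 5.28 RPKM in the DMSO libraries. It rose 1.68-fold (log2 fold change 0.66, 95% interval 0.52 to 0.80, limma adjusted p = 2.5e-05), with every 611 library above every DMSO library. E2f2, a related activator, was at 2.03, 1.43 and 2.00 RPKM in the 611 libraries, against 1.58, 1.21 and 1.63 RPKM in the DMSO libraries, with overlapping groups (log2 fold change 0.19, 95% interval -0.05 to 0.43, limma adjusted p = 0.153). In both groups replicate 2 was the lowest for E2f2, and a fit with the replicate number as a block called it higher (limma adjusted p = 0.0241), as did a fit without 611 replicate 2 (limma adjusted p = 0.0271). It was not called after scaling, either without the block (log2 fold change 0.09, limma adjusted p = 0.484) or with it (limma adjusted p = 0.189). Ccne1 was also called higher without that library (limma adjusted p = 0.0399).

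**Figure D4:**
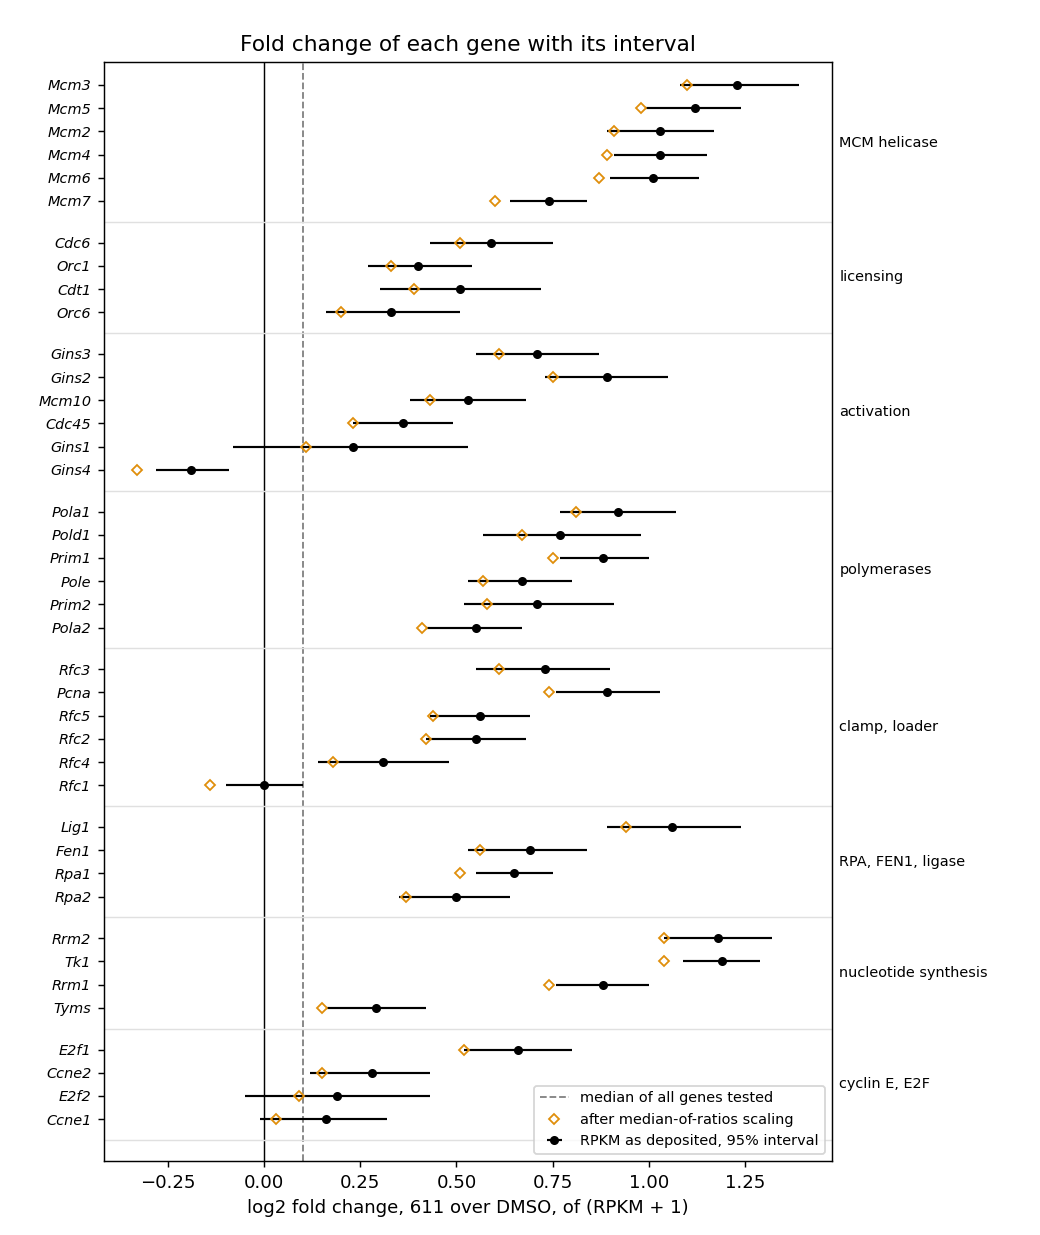
Log2 fold change of RPKM + 1, 611 over DMSO, for each of the 40 genes (filled circles, bars are 95% intervals from limma) and after median-of-ratios scaling (open diamonds), by role. The dashed line is the median of all genes tested, 0.10. MCM genes lie at 0.74 to 1.23, while Rfc1 lies at 0.00 and Gins4 at -0.19.

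In the wider network of E2F, RB and DREAM genes, 11 of 18 were higher and 3 lower (median log2 fold change 0.20), beside 7 and 5 after scaling. Foxm1, a driver of mitosis genes, rose 2.27-fold to 7.42 ± 0.152 RPKM with 611, against 3.27 ± 0.130 RPKM with DMSO (limma adjusted p = 1.5e-06), and E2f8 and E2f7, repressor E2Fs of S phase, rose 3.03-fold and 3.14-fold (limma adjusted p = 4.3e-06, and limma adjusted p = 2.6e-05). Rbl1, the p107 pocket protein, rose 1.93-fold to 4.90 ± 0.384 RPKM with 611, against 2.54 ± 0.102 RPKM with DMSO (limma adjusted p = 2.2e-05), whereas Rb1 averaged 11.6 ± 0.3003 RPKM with 611, against 12.2 ± 0.560 RPKM with DMSO and did not pass the test (limma adjusted p = 0.297). Lin52, a DREAM subunit, fell 1.42-fold, and Myc fell 1.22-fold to 11.03 ± 0.915 RPKM with 611, against 13.4 ± 0.156 RPKM with DMSO (limma adjusted p = 0.00416).

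Of 20 other cyclins, kinases and inhibitors of G1 and S phase tested, 10 were higher and 3 lower (median log2 fold change 0.22). After scaling 9 were higher and 4 lower (median 0.10). Of all genes tested 41.6% were called higher and 17.7% lower without scaling, so the counts of this list lie near that background. Ccnd1, cyclin D1, had the largest rise in that list, 4.49-fold to 26.9 ± 0.796 RPKM with 611, against 5.99 ± 0.288 RPKM with DMSO (limma adjusted p = 9.3e-08), and Ccna2, the S and G2 cyclin, rose 2.29-fold to 22.0 ± 0.781 RPKM with 611, against 9.60 ± 0.2496 RPKM with DMSO (limma adjusted p = 4.6e-07). Cdkn1a, the inhibitor p21, was at 97.6, 99.6 and 97.0 RPKM in the 611 libraries, against 143, 150.0 and 153 RPKM in the DMSO libraries, 1.52-fold lower (limma adjusted p = 3.3e-06). Cdkn2c, the inhibitor p18, fell 1.42-fold to 50.4 ± 1.62 RPKM with 611, against 71.4 ± 5.95 RPKM with DMSO (limma adjusted p = 0.00011). Other inhibitors went the opposite way: Cdkn1b, p27, rose 2.21-fold and Cdkn2d, p19, rose 1.72-fold (limma adjusted p = 2.3e-06, and limma adjusted p = 2.1e-05).

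Chromatin replication genes were mostly higher, with 9 of 11 higher and 0 lower and a median log2 fold change of 0.38. After scaling 7 were higher and 0 lower (median 0.24). Uhrf1, which carries DNA methylation over to new strands, rose 2.33-fold to 10.7 ± 0.709 RPKM with 611, against 4.59 ± 0.161 RPKM with DMSO (limma adjusted p = 1.8e-06), and Chaf1b, of the histone chaperone that works with PCNA, rose 2.51-fold to 3.80 ± 0.0727 RPKM with 611, against 1.52 ± 0.0981 RPKM with DMSO (limma adjusted p = 3.2e-06). Of 25 DNA repair and checkpoint genes, 18 were higher and 3 lower (median log2 fold change 0.28), beside 15 and 4 after scaling. Brca1, which acts in the repair of DNA breaks, was at 9.95, 10.6 and 10.9 RPKM in the 611 libraries, against 13.3, 14.4 and 14.7 RPKM in the DMSO libraries, 1.35-fold lower with no overlap (limma adjusted p = 0.00025).

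The G2 and mitosis genes rose without exception. All 30 were higher, with log2 fold changes between 0.72 and 1.38 and a median of 1.09, while the 40 replication genes spanned -0.19 to 1.23 around their median of 0.66. These are descriptions of 2 lists, and the difference between them was not tested. Mki67, the proliferation marker, was at 21.1, 20.8 and 24.0 RPKM in the 611 libraries, against 8.80, 8.49 and 9.18 RPKM in the DMSO libraries (limma adjusted p = 1.1e-06). Anln, of the contractile ring, and Top2a, the topoisomerase that separates copied DNA, were among those with the highest log2 fold changes of the mitosis list, at 1.38 and 1.28. On the log2(RPKM + 1) scale, which understates changes at low levels, 4 of the 40 replication genes exceeded the median of the mitosis list. These were Mcm3 at 1.23, Tk1 at 1.19, Rrm2 at 1.18 and Mcm5 at 1.12. How far this scale shapes the difference between the lists was not tested.

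**Figure D5:**
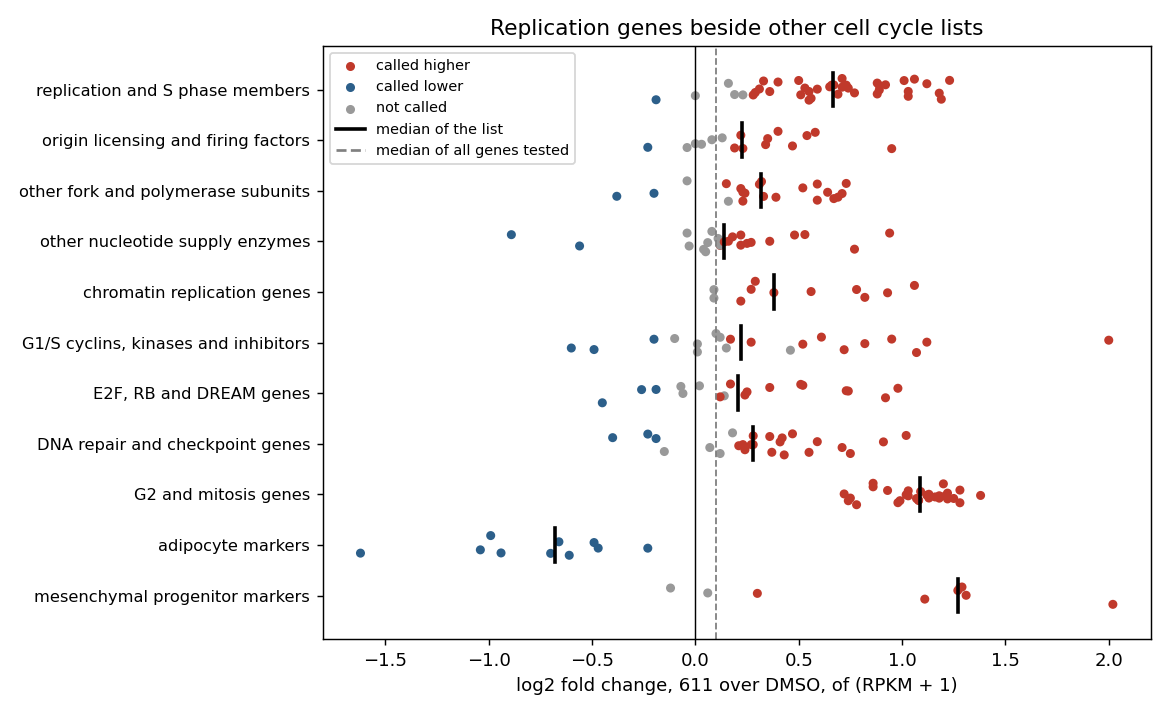
Log2 fold change of RPKM + 1, 611 over DMSO, of single genes (points) in the replication set and 10 other lists, coloured by call, with the median of each list (black bar) and of all genes tested (dashed line, 0.10). All 30 G2 and mitosis genes lie above 0.7 and all 10 adipocyte markers below 0. The 40 replication genes spread from -0.19 to 1.23 and overlap the range of the mitosis list.

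Across the 40 genes, fold change and DMSO level were weakly and negatively related (Pearson's r = -0.27 over 40 genes, which share the same 6 libraries and the DMSO values). The subunits with the highest DMSO level in their complex, Gins4, Rfc1, Mcm7 and Pola2, had the smallest fold change in it. The ratio of the highest to the lowest subunit mean was 6.49 with 611 against 16.2 with DMSO for GINS, 3.12 against 5.57 for RFC, 2.30 against 3.12 for the MCM ring, and 2.05 against 3.17 for polymerase alpha and primase. Kdm1a, which encodes LSD1, was 1.25-fold higher at the mRNA level (limma adjusted p = 0.00074), and since 611 acts on the protein this transcript does not check the labels.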

How the data were processed

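Messenger RNA was sequenced as 6 libraries (n = 3 for 611, n = 3 for DMSO); the kit was a stranded one for mRNA, per the labels' protocols. The values used are RPKM as deposited by the authors, for 28430 RefSeq transcripts in each library; no header names the unit, which was inferred from the values. TopHat2 version 2.0.12, SAMtools and build mm9 are named in the submitters' processing notes. Not given in the sources used here are the program behind the RPKM values, its annotation and its strand setting, so overlapping genes and near-identical copies could share reads. Library totals, from the value of 1 read, were 4.08e+07, 4.12e+07 and 4.09e+07 for 611 and 3.89e+07, 3.97e+07 and 3.99e+07 for DMSO. Correlations of log values were 0.996 to 0.997 within groups and 0.972 to 0.979 between groups.

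Accessions were given symbols from a RefSeq table of GRCm38.p6 (27785 matched), used for names and promoter sequences only. The 40 genes and all lists were chosen with earlier results of these data known. Limma 3.58.1 in R 4.3.3, with trend, was run on log2(RPKM + 1) over all 13829 genes tested, with group as the only term, and p-values were adjusted by Benjamini-Hochberg. The fit was tested on simulated data. Alternatives changed the pseudocount, filter, scaling, transcript choice and libraries.

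Same-numbered libraries deviated together from their group means (correlations 0.30, 0.30 and 0.18 across genes, and -0.07 to -0.23 otherwise). Replicate numbers were therefore taken to pair the libraries, but only in the alternative fits with a replicate block. The main fit left the pairing out. With the block alone 6169 of all genes were called higher and 2700 lower, against 5758 and 2451 in the main fit. Named genes outside the 40 were the largest 2 rises and 2 falls per list, by log2(RPKM + 1), among called genes with a mean of at least 1 RPKM; the rises of the repair list are not reported here. Kdm1a, Mki67 and the adipocyte and brown adipocyte markers were also in the rule. Orc2 to Orc4, Gmnn, Cdk2, Pole2, Pole3, Pold2, E2f7, Rbl1, Rb1, Cdkn1b and Cdkn2d were added after their values were seen, to complete complexes or families, as were Des and the markers listed at 0 (Ptprc, Cdh5, Myod1, Myog and Ckm). Of the 40 genes 9 had several transcripts.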

Additional observations from a re-analysis of the deposited data

How the results depend on the processing

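Under 17 alternatives the count of the 40 genes called higher stayed between 31 and 37, and Gins4 was called lower. Rfc1 joined it, giving 2 lower genes, after median-of-ratios scaling and with scaling and the replicate block together. Of 680 single-gene values under the alternatives, 660 kept their direction and their side of the threshold. Rfc1 changed sign to -0.14 with scaling, with or without the block, to -0.11 with quantile normalization, and to -0.02 without 611 replicate 2 or without DMSO replicate 1 (range -0.02 to 0.02 leaving out 1 library at a time). Quantile normalization also gave -0.03 for Gins1, -0.10 for Ccne1 and -0.06 for E2f2. It ended the calls of Orc6, Cdc45, Rfc4 and Ccne2 (limma adjusted p = 0.0987, 0.117, 0.462 and 0.443). The median log2 fold change of the 40 genes, 0.66, was 0.80 and 0.75 with pseudocounts of 0.1 and 0.5, 0.54 with scaling, with or without the block, and 0.47 with quantile normalization. Over all genes, scaling gave 3962 lower calls (4327 with the block), and quantile normalization 3652 higher and 4282 lower, against 5758 higher and 2451 lower. In the lists outside the 40 genes, quantile normalization gave 5 higher and 3 lower for licensing, 8 and 5 for nucleotide supply, 11 and 2 for the fork, 6 and 6 for E2F, and 11 and 4 for repair, with 6 lower in G1/S. Scaling with the block kept the calls of Orc6 and Rfc4 and ended that of Ccne2 (limma adjusted p = 0.0571). The other fork genes had 1 lower call instead of 2 without 611 replicate 3 or DMSO replicate 2. Leaving out 1 library gave 35 to 37 higher members. The replicate block without scaling gave 36 higher members and a median of 0.66, and changed no call among the 40 genes other than that of E2f2. Depth limits Orc1, Gins1, Gins3 and Cdc6 among others, which rest on about 65.1, 101, 102 and 109 reads in their lowest library.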
